A study of Mus musculus with 1824 samples.

Results

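Cells of the haemato-endothelial branch of mouse embryos were compared between a plate collected at E7.5 (embryonic day 7.5) and a plate collected at E8.5. The cells were chosen by their own RNA. A cell was a member when it had at least 100000 reads and at least 2 of the 5 endothelial marker genes *Kdr*, *Cdh5*, *Pecam1*, *Tie1* and *Tek* at 20 CPM or more (CPM, a gene's reads scaled to 1000000 reads). On the E7.5 plate, called E7.5 lane plate 2 after the lane tag in its well names, 74 of the 89 cells with enough reads were members (83.1%, 95% Clopper-Pearson interval 73.7 to 90.2). On E8.5 plate 3, 72 of 83 cells were members (86.7%, 77.5 to 93.2). Together these were 146 cells of the 1824 in the series, of which 478 on all plates passed the same rule.

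The series holds 19 plates of 96 wells, in which RNA of single cells was read by Smart-seq2. In the study, some cells went through a multi-omics protocol (scNMT-seq) and others through RNA sequencing only. The labels do not say which protocol a plate had. The labels give both plates the strain CD1 and the tissue E7.5 embryo or E8.5 embryo, and nothing else that tells their wells apart. By the methods of the study, embryos were chimaeras made by injecting *Tet*-TKO embryonic stem cells, which lack all TET enzymes and carry an H2B-tdTomato reporter driven by CAG, into wild-type C57BL/6J blastocysts that were carried by CD1 recipients. The methods describe pooling of chimaeras before dissociation and, for the multi-omics protocol, sorting of live singlets stained for KDR and CD41. Some other E7.5 plates are titled by a single embryo, and the labels do not show whether these steps held for the compared plates. The genotype of a cell (knockout or host), its sort gate and its protocol are not given in the labels. Stage, genotype make-up, gate, protocol and plate therefore cannot be told apart in what follows. Each stage is 1 plate, hence 1 sample, and no test between stages was made. Intervals cover counting error only, and they treat reads, or for shares the cells of a plate, as independent. Amplified reads without molecular identifiers are not independent molecules, so the intervals for CPM are too narrow.

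Endothelium and blood arise together in the early embryo from mesoderm that expresses *Kdr*, the main receptor for vascular endothelial growth factor. ETS, GATA, SCL and LMO2 factors set up the shared programme, RUNX1 is needed where endothelium gives rise to blood, and Notch with its arterial targets separates arterial from venous endothelium. The first vessels of the yolk sac and the dorsal aortae form between the stages sampled here.

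*Kdr* was at 20 CPM or more in every member of both plates, and most members had all the rule genes. In E7.5 lane plate 2, 55 members had all 5 markers, 5 had 4, 8 had 3 and 6 had 2. In E8.5 plate 3 these numbers were 56, 6, 4 and 6. Cells with enough reads that were left out had a single marker, 15 cells on the first plate and 11 on the second, and no such cell lacked all 5 markers. At the threshold, the second-highest marker of the weakest member stood at 24.5 CPM at E7.5 and 43.3 CPM at E8.5, while the highest value among cells left out was 7.5 and 9.51 CPM. Because these genes chose the cells, their levels are given as a description and are no check of the label. *Kdr* ranged from 85.7 to 3580 CPM around a median of 1095 CPM at E7.5 and from 206 to 3737 CPM around 1375 CPM at E8.5, so the plates overlapped almost entirely. The log2 ratios of pooled CPM (E8.5 plate 3 over E7.5 lane plate 2, 1 CPM added to both) lay between -0.32 for *Tek* and 0.68 for *Pecam1*.

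**Figure D1:**
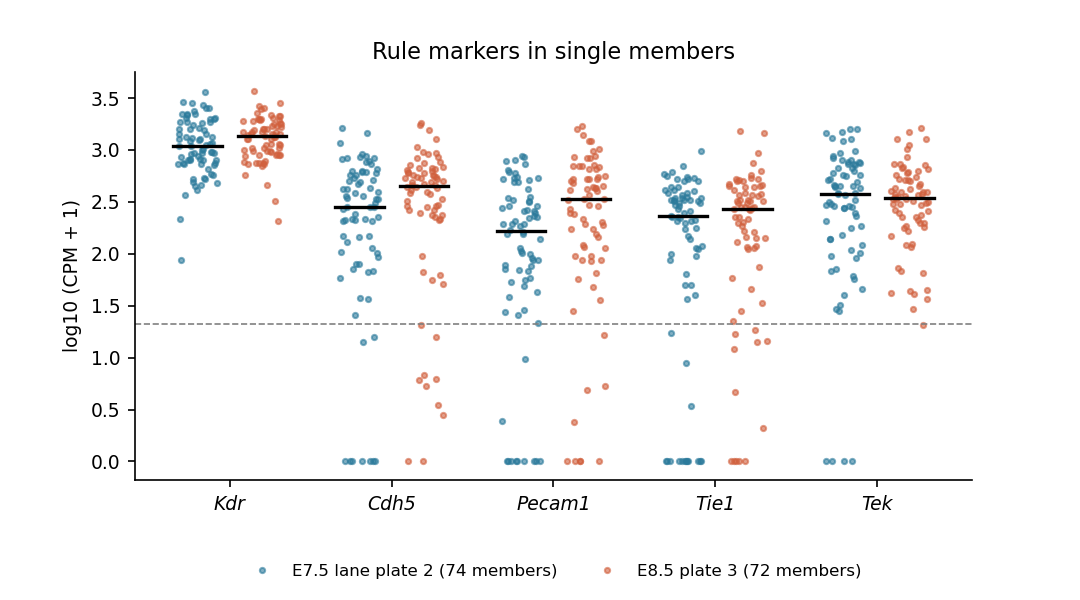
Level of the 5 marker genes of the rule in every member of E7.5 lane plate 2 (74 cells, blue) and E8.5 plate 3 (72 cells, orange), as log10 of CPM plus 1. Points are cells, black bars are medians and the dashed line is the 20 CPM limit of the rule; the *Kdr* points of both plates cover the same range, and the other markers hold a few cells at 0.

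Depth of the members was close, while some quality measures differed. The members of E7.5 lane plate 2 held 47727728 reads in all (100941 to 1538621 a cell) and those of E8.5 plate 3 held 49512644 (108905 to 1740497). After thinning each cell to 100000 reads, the median number of genes detected was 6439 (2338 to 7465) in the earlier plate and 6253 (4081 to 7950) in the later. Reads on mitochondrial genes made up 1.44% and 1.15%, reads on ribosomal protein genes (Rpl and Rps symbols) 7.7% and 5.51%, and haemoglobin reads 0.00139% and 0.00224%. The highest ribosomal share of a single member was 18.2% at E7.5 and 9.72% at E8.5. No member was over the mitochondrial or ribosomal limits of the study, and no 2 members held identical values.

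The promoters of 4 genes of the comparison are printed first. *Kdr* is 1 of the 5 gate genes, none of which was past 2-fold between the plates. *Efnb2* and *Spry2* were lower on E8.5 plate 3, with plates of the stages apart for *Spry2* and overlapping for *Efnb2*, and *Vim* was higher on E8.5 plate 3. Each line is 300 bases of the RefSeq promoter table (GRCm38.p6), 250 bases before to 50 after the start in that table. Lines run 5′ to 3′ on the strand of the gene. The *Vim* window lies inside the gene coordinates given for *Vim* below, which come from another annotation with an earlier start. Capitals mark matches, on either strand, of the ETS core CCGGAA, the GATA motif AGATAA, the E-box CAGATG, the T-box TCACACCT or the TATA box TATAAA.
*Kdr*, chr5:75978406-75978705, minus strand: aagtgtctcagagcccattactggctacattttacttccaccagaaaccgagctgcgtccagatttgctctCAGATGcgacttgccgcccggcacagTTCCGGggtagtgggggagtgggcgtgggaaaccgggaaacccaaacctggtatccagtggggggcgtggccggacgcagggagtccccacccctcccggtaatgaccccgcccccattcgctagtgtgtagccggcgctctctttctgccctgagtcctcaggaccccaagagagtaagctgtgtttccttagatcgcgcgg
*Efnb2*, chr8:8661193-8661492, minus strand: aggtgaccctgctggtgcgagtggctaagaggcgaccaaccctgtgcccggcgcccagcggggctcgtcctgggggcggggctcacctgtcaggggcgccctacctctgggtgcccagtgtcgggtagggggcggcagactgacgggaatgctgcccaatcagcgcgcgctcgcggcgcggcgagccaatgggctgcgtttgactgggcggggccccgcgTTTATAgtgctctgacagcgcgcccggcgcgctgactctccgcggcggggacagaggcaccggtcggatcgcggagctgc
*Spry2*, chr14:105896770-105897069, minus strand: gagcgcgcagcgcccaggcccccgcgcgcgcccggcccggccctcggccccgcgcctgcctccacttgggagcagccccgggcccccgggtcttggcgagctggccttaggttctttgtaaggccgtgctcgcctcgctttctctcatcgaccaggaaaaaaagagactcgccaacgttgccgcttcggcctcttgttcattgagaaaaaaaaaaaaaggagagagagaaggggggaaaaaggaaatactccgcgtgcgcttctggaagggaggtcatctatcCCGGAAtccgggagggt
*Vim*, chr2:13574061-13574360, plus strand: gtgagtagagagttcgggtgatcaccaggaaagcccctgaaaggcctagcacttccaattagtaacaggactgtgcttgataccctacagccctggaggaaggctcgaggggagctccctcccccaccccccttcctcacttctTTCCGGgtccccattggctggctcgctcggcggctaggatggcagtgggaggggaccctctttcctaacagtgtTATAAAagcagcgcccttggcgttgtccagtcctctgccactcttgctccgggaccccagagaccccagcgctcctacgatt

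The *Kdr* window held 1 ETS core and 1 E-box with 19 CG dinucleotides, and the *Spry2* window 1 ETS core with 28 CG. The *Efnb2* window held 1 TATA box and 35 CG, and the *Vim* window 1 ETS core, 1 TATA box and 11 CG. These letters are common: among the 7344 promoters matched to the 9182 protein-coding genes counted below, 32.2% held the ETS core, 5.98% the TATA box, 10.2% the E-box, 5.73% the GATA motif and 0.613% the T-box. Among 442 promoters of genes higher at E8.5 the ETS core was in 24.4% and the TATA box in 7.24%, and among 545 of genes lower at E8.5 in 29.2% and 7.89%. Over all 27025 promoters in the table, expressed or not, the ETS core was in 15.2% and the TATA box in 14.2%. A match of letters in such a window is a description and shows no binding.

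Most genes lay within 2-fold between the plates. Of 9624 genes with at least 10 CPM in the pooled members of either plate, 8095 lay within 2-fold, 635 were at least 2-fold higher at E8.5 (6.60%) and 894 at least 2-fold lower (9.29%), or 15.9% past 2-fold in either direction. The median log2 ratio was 0.05. A share of this size was also found between plates of the same stage. Members of E8.5 plate 4 differed from those of E8.5 plate 3 past 2-fold at 13% of 9470 genes, and members of E7.5 lane plate 3 differed from those of E7.5 lane plate 2 at 31.5% of 9583 genes. Among all 36 pairs of the 9 plates with at least 10 members, the pair compared here had the 2nd lowest share. The 16 same-stage pairs ranged from 13 to 41.1% (median 29.9%) and the 20 pairs of different stages from 15.9 to 51.9% (median 37.2%). These pairs were set up after the data had been seen, and the pairs share plates.

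**Figure D2:**
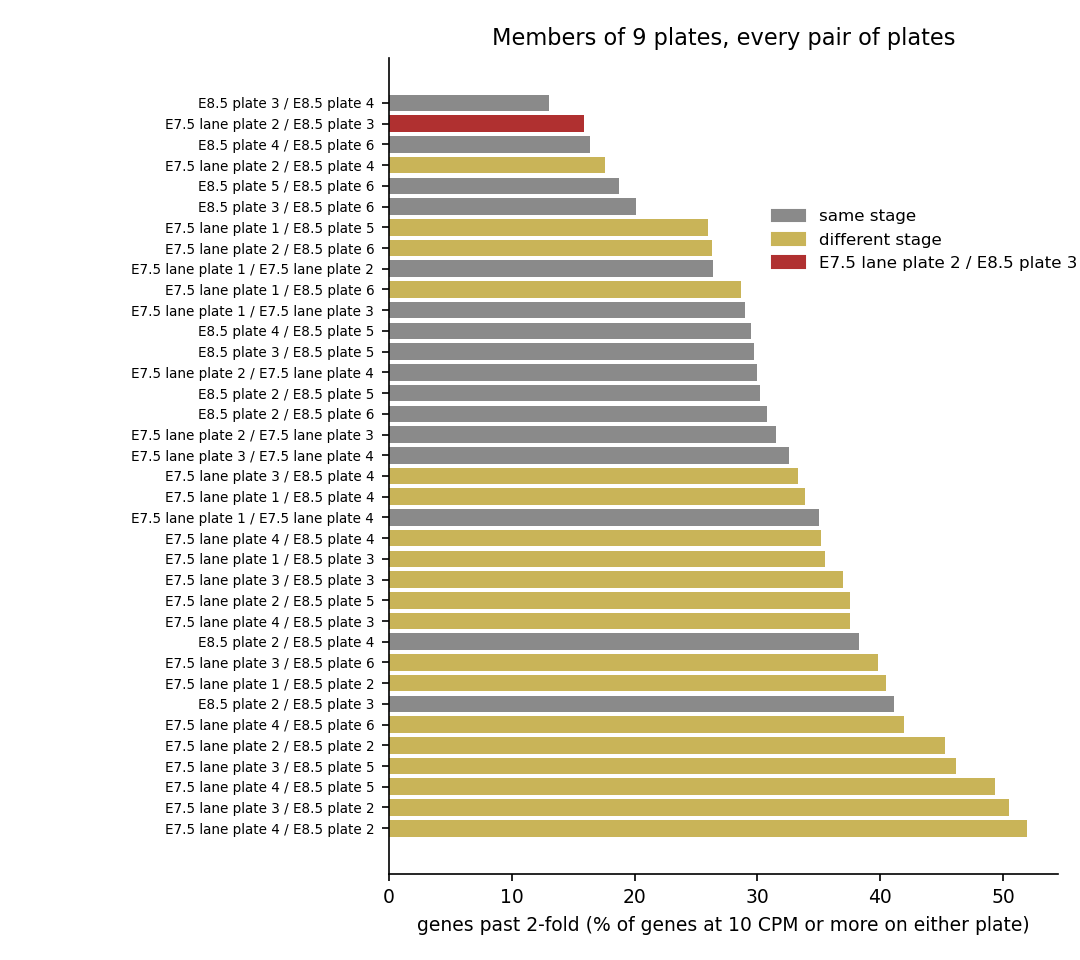
Share of genes past 2-fold, in percent of genes at 10 CPM or more on either plate, for members of every pair of the 9 plates with at least 10 members. Grey bars are pairs of one stage, yellow bars pairs of different stages and the red bar is E7.5 lane plate 2 against E8.5 plate 3, at 15.9% the 2nd lowest of the 36 bars.

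A difference past 2-fold between these plates was therefore set beside the plates that the rule did not use. Members of the other E7.5 plates (96 cells) and the other E8.5 plates (236 cells) were pooled by stage, and 11% of 9567 genes were higher and 11.2% lower at E8.5 among them. Of the 635 genes higher on E8.5 plate 3, 173 were higher there too (27.2% of the first list and 16.5% of the second), and 25 were past 2-fold the opposite way (3.94%). Of the 894 lower genes, 341 were lower there too (38.1% and 32% of the lists) and 39 opposite (4.36%). In addition, all E8.5 plates lay above all E7.5 plates for 7.46% of 9607 genes and below them for 6.24%, counting the 4 E7.5 and 5 E8.5 plates with at least 10 members. Of the genes called in the main pair, 132 of the higher (20.8%) and 326 of the lower (36.5%) had plates that did not overlap in that direction. The main plates are among the 9, so these shares are partly fixed by the call itself. In cells outside the rule (786 at E7.5 and 385 at E8.5, all plates), 281 of the lower genes were also past 2-fold lower (31.4%, against 8.78% of all genes counted), and 65 of the higher genes also higher (10.2%, against 7.71%).

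All 17 transcription factors of the haemato-endothelial list were counted and 16 lay within 2-fold, so that 1 was past it, beside 15.9% of all genes counted. Their median log2 ratio was 0.06 (0.05 over all genes). *Lmo2*, a bridging partner of TAL1, stood at 77.7 CPM at E7.5 and 145 CPM at E8.5 (log2 ratio 0.89), and the ETS factors *Ets1* (160 and 295 CPM, 0.88) and *Erg* (37.3 and 58.9 CPM, 0.64) also had values above 0 without reaching 2-fold. The SOX factor *Sox17* was at 133 and 201 CPM (0.59). The single factor past 2-fold was *Runx1*, a factor required for blood emergence from endothelium, with 24 CPM (22.6 to 25.4) at E7.5 and 2.1 CPM (1.72 to 2.55) at E8.5, a log2 ratio of -3.01. Most of this level sat in few cells. At least 20 CPM of *Runx1* was found in 13 of 74 members at E7.5 (17.6%, 9.70 to 28.2) and in 1 of 72 at E8.5 (1.39%, 0.0352 to 7.5). The 5 highest cells held 74.8% of its CPM summed over cells at E7.5. The order did not carry over to other plates, where *Runx1* ranged from 36.8 to 212 CPM at E7.5 and from 3.24 to 232.2 CPM at E8.5. Another regulator of blood stem cells, *Mecom*, had 102 and 52.3 CPM (log2 ratio -0.95), but 0.61 on the other plates.

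Of the 25 endothelial surface and junction genes, all were counted and none was past 2-fold, beside 15.9% of all genes counted. The median was 0.19, the range ran from -0.44 to 0.78 and 16 of the genes lay above 0. The claudin *Cldn5*, a protein of endothelial tight junctions, was at 700 CPM at E7.5 and 1199 CPM at E8.5, with a cell median of 297 and 1069 CPM. It was at 20 CPM or more in 52 of 74 and 68 of 72 members. The sialomucin *Emcn* differed in the share of cells more than in its pooled level. After thinning, a read of *Emcn* was found in 39 of 74 members at E7.5 (52.7%) and 61 of 72 at E8.5 (84.7%). Its cell median was 36.4 and 424 CPM, while pooled CPM stayed within 2-fold (307 and 446, log2 ratio 0.54). The 5 highest E7.5 cells held 37.1% of its CPM summed over cells. *Plvap*, the protein of endothelial fenestral diaphragms, was at 1117 and 1543 CPM (0.47) and the TGF-beta family receptor *Acvrl1* at 170 and 233 CPM (0.46). *Mmrn2*, a matrix protein of endothelium, lay on the other side of 0 with 376 and 289 CPM (-0.38). On the other plates *Emcn* ranged from 0 to 173 CPM and *Cldn5* from 0 to 506 CPM, all under the values of the plates compared here.

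**Figure D3:**
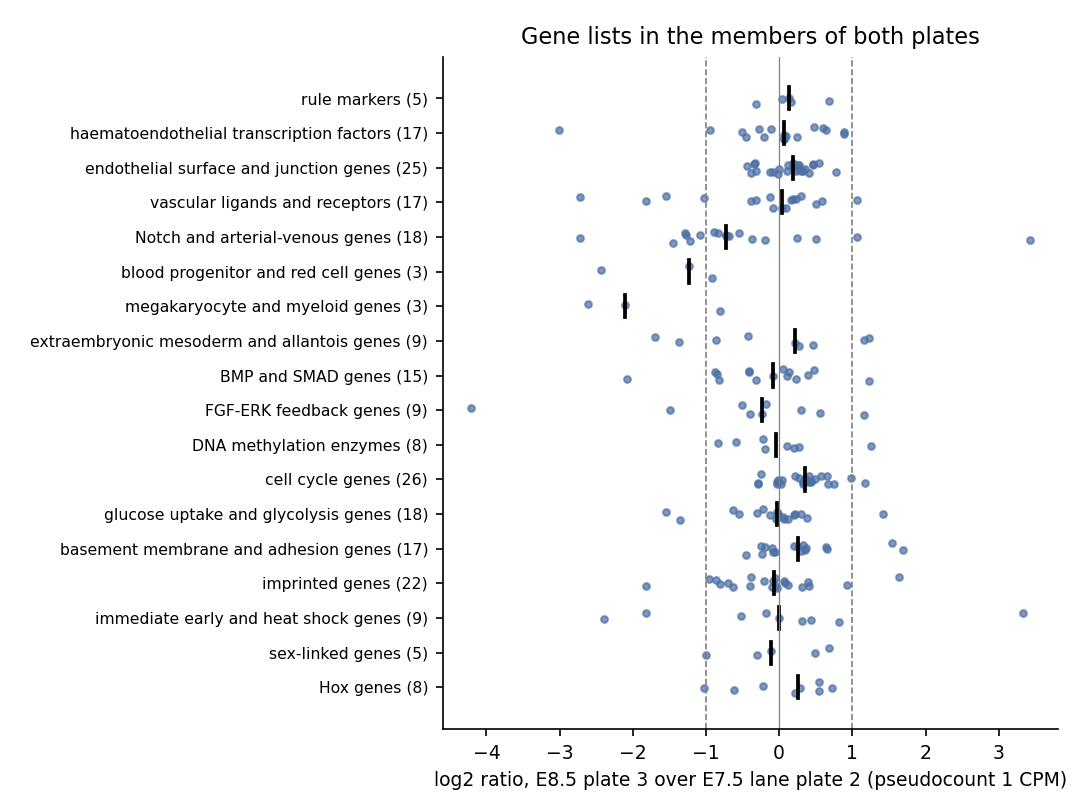
Log2 ratio of pooled CPM, E8.5 plate 3 over E7.5 lane plate 2 with 1 CPM added, for every counted gene of 18 gene lists (number counted in brackets). Points are genes, black bars are list medians and dashed lines mark 2-fold; all 25 endothelial surface genes lie inside the lines, and the Notch and arterial-venous list has the lowest median (-0.72) among the lists with at least 5 counted genes.

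Among 21 vascular ligands and receptors, 17 were counted, 1 was higher and 4 were lower (beside 6.60% and 9.29% of all genes counted), with a median of 0.04. Of the ligands, *Vegfa*, the main growth factor for KDR, was lower (11.6 and 3.33 CPM, log2 ratio -1.54), as was *Vegfc*, a ligand of FLT4 (31.7 and 15.0 CPM, -1.03). Both were low, with a cell median of 1.27 CPM or less at E7.5 and 0 at E8.5. *Vegfc* went the other way on the other plates (0.70), and *Vegfa* against E7.5 lane plate 3 (0.60). Of the receptors, *Aplnr*, the apelin receptor of venous and sprouting endothelium, was higher: its cell median was 137 CPM at E7.5 and 408 CPM at E8.5, its pooled level 223 and 467 CPM and its log2 ratio 1.06. Its ligand *Apln* was at 45.6 and 68.8 CPM (0.58), but past 2-fold the opposite way on the other plates (-1.33). *Aplnr* on the other plates ranged from 37.4 to 374 CPM at E7.5 and from 0 to 557 CPM at E8.5, with a pooled log2 ratio of 0.03. The mural cell receptor *Pdgfrb* was lower (17.9 and 4.36 CPM), in 7 and 2 members at 20 CPM or more.

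Notch and arterial-venous genes had the lowest median of the longer lists. Of 20 Notch and arterial-venous genes, 18 were counted, 6 were lower (*Jag1*, *Notch2*, *Notch3*, *Gja5*, *Unc5b* and *Efnb2*) and 2 higher (*Dll1* and *Aplnr*), with a median of -0.72. Over all genes counted 9.29% were lower and 6.60% higher, and the median was 0.05. *Efnb2*, the ephrin of arterial endothelium (chromosome 8, 8617434 to 8661242, minus strand), had a cell median of 95.7 CPM (0 to 2796) at E7.5 and of 9.41 CPM (0 to 302) at E8.5. Its pooled level was 299 CPM (294 to 304) and 44.6 CPM (42.8 to 46.5), a log2 ratio of -2.72, and its promoter is among those printed above. It was at 20 CPM or more in 54 of 74 members at E7.5 (73%, 61.4 to 82.6) and in 29 of 72 at E8.5 (40.3%, 28.9 to 52.5). Among other plates *Efnb2* was also lower at E8.5 (log2 ratio -1.95), although E7.5 lane plate 1, at 22.5 CPM, lay under E8.5 plate 4, at 53.7 CPM. *Notch2*, a receptor, was at 40.6 and 14.2 CPM (-1.46) and was lower on all 5 E8.5 plates (8.41 to 30.1 CPM) than on all 4 E7.5 plates (36.2 to 136 CPM). The ligand *Jag1* was at 49.8 and 19.9 CPM (-1.28) and the netrin receptor *Unc5b* at 51.4 and 23.8 CPM (-1.08), and both had log2 ratios of like size on the other plates (-1.21 and -0.93). With E7.5 lane plate 3 in place of lane plate 2, however, *Jag1* turned to 2.70.

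Members that carried arterial genes had less *Efnb2* on the E8.5 plate. At least 2 of *Gja4*, *Gja5*, *Dll4*, *Hey1* and *Unc5b*, a set put together after the values were seen, were at 20 CPM or more in 36 of 74 members at E7.5 (48.6%, 36.9 to 60.6) and 23 of 72 at E8.5 (31.9%, 21.4 to 44). On E8.5 plate 4 this share was 50% and on E7.5 lane plate 3 it was 35.7%, so the order of the shares was turned on that pair. In those members *Efnb2*, which is not in the set, had a median of 292 CPM at E7.5 and 70.1 CPM at E8.5, and in the remainder 43.5 and 5.23 CPM. On E7.5 lane plate 3 the medians were 50.9 and 17.1 CPM, and on E8.5 plate 4 they were 55.9 and 5.02 CPM. The gap junction gene *Gja4* was at 396 and 214 CPM (-0.89), the Notch ligand *Dll4* at 163 and 98.4 CPM (-0.72, against 0.49 on the other plates) and the Notch target *Hey1* at 109 and 84 CPM (-0.37). *Gja5*, the connexin of mature arteries, rested on 14 and 7 members at 20 CPM or more, and it turned to 2.38 on the other plates. The 5 highest cells held 76.6% and 98.7% of its CPM summed over cells.

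On the venous side, at least 2 of *Aplnr*, *Ephb4* and *Nr2f2* were at 20 CPM or more in 52 members at E7.5 (70.3%, 58.5 to 80.3) and 63 at E8.5 (87.5%, 77.6 to 94.1). Like the arterial set, this set was not fixed beforehand. On E7.5 lane plate 3 this share was 67.9% and on E8.5 plate 4 it was 83.9%. It was 15% and 69.2% on E7.5 lane plates 1 and 4, and 0%, 1.41% and 53.5% on E8.5 plates 2, 5 and 6. The order of the shares thus depended on the plates compared. *Ephb4*, the receptor of EFNB2 on veins, was at 118 and 167 CPM (0.50). The venous regulator *Nr2f2* was found in more members at E8.5 (35 against 21 at 20 CPM or more), while its pooled level was 62.2 and 34.3 CPM. At E7.5, 5 cells held 60% of its CPM summed over cells, and its log2 ratio was 0.59 on the other plates. No order is read from *Nr2f2*. Members with at least 2 arterial and at least 2 venous genes made up 36.5% at E7.5 and 26.4% at E8.5. Their order was turned between E7.5 lane plate 3 (25%) and E8.5 plate 4 (44.6%). The Notch ligand *Dll1* was at 1.40 CPM at E7.5 and 24.9 CPM at E8.5 and present at 20 CPM or more in 3 and 13 members. It was at most 3.31 CPM on the other plates, which gave -0.41.

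Blood genes were low on both plates. Of 14 blood progenitor and red cell genes 3 reached 10 CPM, and 2 of these were lower, beside 9.29% of all genes counted. The summed level over the list was 242 CPM at E7.5 and 121 CPM at E8.5. *Itga2b*, which encodes CD41, an early blood marker used in the sort, was at 160 and 84.2 CPM (-0.91), and 50 of 74 (67.6%, 55.7 to 78) and 29 of 72 members (40.3%, 28.9 to 52.5) had 20 CPM or more. On the other plates its log2 ratio was 0.94. The erythropoietin receptor *Epor* (28.7 and 11.6 CPM, -1.23) and the megakaryocyte and red cell factor *Nfe2* (11.5 and 1.31 CPM, -2.43) were lower, but both were higher at E8.5 among the other plates (1.46 and 1.15). Embryonic globin reads were few and more widely spread at E8.5. *Hba-x* or *Hbb-bh1* had a read in 25 of 74 members at E7.5 (33.8%) and in 66 of 72 at E8.5 (91.7%), but reached 20 CPM in 6 and 17. Pooled, *Hba-x* stood at 4.74 and 5.51 CPM and *Hbb-bh1* at 5.78 and 8.58 CPM. On E8.5 plate 4 a read was found in 21.4% of members, and the source of these reads was not tested.

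Few myeloid and megakaryocyte genes were detected at 10 CPM. Of 10 such genes 3 were counted and 2 were lower on E8.5 plate 3, *Pf4*, a platelet chemokine (17 and 1.94 CPM, -2.62), and *Spi1*, which encodes the myeloid factor PU.1 (18.2 and 3.45 CPM, -2.11), both at 0.15 on the other plates. The actin regulator of leukocytes *Coro1a* was at 22.6 and 12.5 CPM (-0.81, against 0.96 on the other plates). At E7.5, 12 members had both *Runx1* and *Itga2b* at 20 CPM or more, and 7 had both *Runx1* and *Spi1*. At E8.5 there was no such member in either case, which allows a share of up to 4.99% (Clopper-Pearson). *Etv2*, the ETS factor that starts the haemato-endothelial programme, was found in like numbers of members, 32 of 74 (43.2%) and 30 of 72 (41.7%). At least 2 of the 6 genes *Gata1*, *Klf1*, *Itga2b*, *Gp9*, *Hba-x* and *Hbb-bh1* were at 20 CPM or more in 8 members at E7.5 and 14 at E8.5. Without these members the log2 ratios of *Runx1* and *Spi1* were -1.77 and -1.63, nearer to 0 but still past 2-fold.

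*Spry2* had the largest ratio in size of all genes on the lists. It encodes Sprouty 2, an inhibitor that is induced by, and feeds back on, FGF and VEGF signalling through ERK (chromosome 14, 105891947 to 105896819, minus strand). Single members ranged from 0 to 271 CPM around a median of 64.5 CPM at E7.5, and from 0 to 106 CPM around 0 at E8.5, with 55 of 74 members (74.3%) and 4 of 72 (5.56%) at 20 CPM or more. The pooled levels were 79.3 CPM (76.8 to 81.9) and 3.33 CPM (2.84 to 3.88), a log2 ratio of -4.21. The 4 E7.5 plates lay between 40.9 and 79.3 CPM and the 5 E8.5 plates between 0.77 and 9.25 CPM, with no overlap. The log2 ratio was -4.07 among the other plates and -3.97 in cells outside the rule, so the ratio was of like size without the compared plates and without the marker rule. The ERK-induced ETS gene *Etv5* was at 46.7 and 16 CPM (-1.49), with plates that overlapped between the stages. The related inhibitor *Spred1* was at 39.6 and 27.5 CPM (-0.51), with E7.5 plates all above E8.5 plates. Not all feedback genes shared this order. *Dusp4*, an ERK phosphatase, was higher (25.4 and 57.9 CPM, 1.16) but lower at E8.5 among the other plates (-1.14), and *Dusp6* was at 194 and 286 CPM (0.55). Of 9 counted genes of this list 2 were lower and 1 higher, beside 9.29% and 6.60% of all genes counted. The list median was -0.24, against 0.05 over all genes counted.

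**Figure D4:**
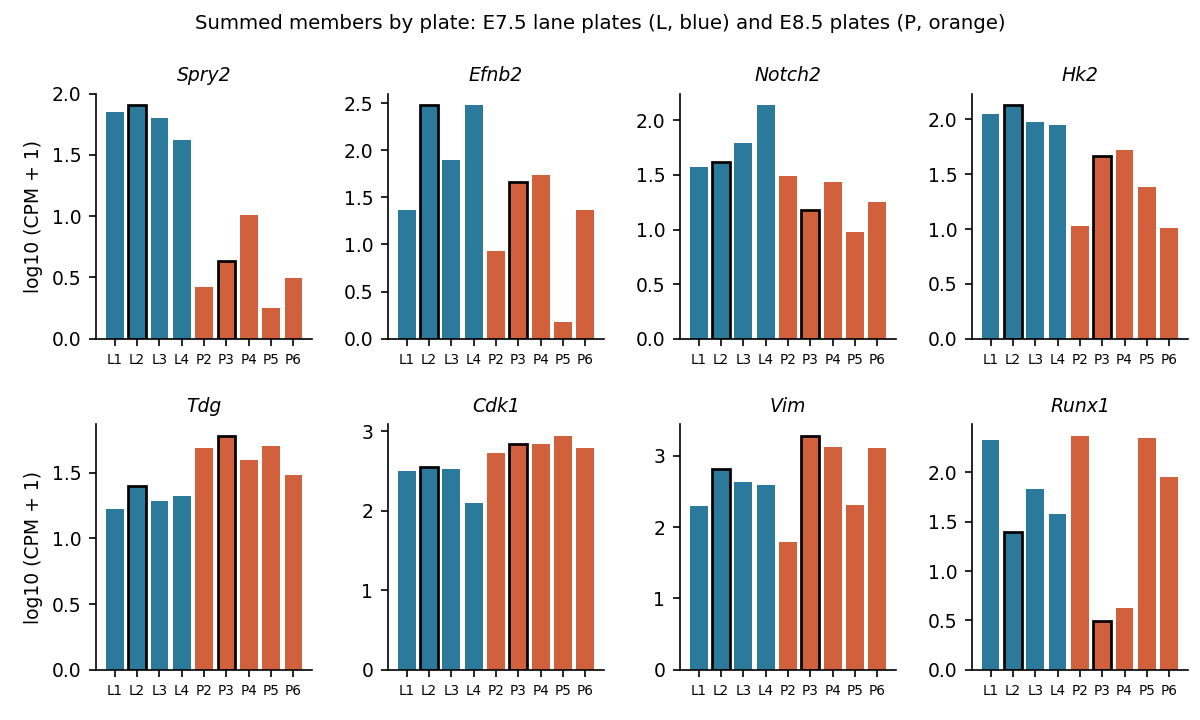
Pooled level in the members of each plate with at least 10 members, as log10 of CPM plus 1 (axes start at 0), for 8 genes. Blue bars are the 4 E7.5 lane plates (L1 to L4), orange bars the 5 E8.5 plates (P2 to P6) and black outlines mark the compared plates; *Spry2*, *Notch2*, *Hk2*, *Tdg* and *Cdk1* separate the stages on all 9 plates, while *Efnb2*, *Vim* and *Runx1* overlap.

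BMP signalling patterns the extraembryonic mesoderm in which yolk sac endothelium forms. Of 16 BMP and SMAD genes 15 were counted, 13 lay within 2-fold and the median was -0.09. Past 2-fold were 1 higher and 1 lower gene, beside 6.60% and 9.29% of all genes counted. The ligand *Bmp4* was higher (27.4 and 65.5 CPM, log2 ratio 1.23), found in 19 and 18 members at 20 CPM or more with a median of 64.4 and 171 CPM in these. The other plates gave -0.66. The inhibitory *Smad7* was lower (18.1 and 3.49 CPM, -2.08) and its relative *Smad6* had 20.2 and 10.5 CPM (-0.88). The receptors *Bmpr1a* (35.2 and 19.2 CPM, -0.84) and *Bmpr2* (167 and 93.9 CPM, -0.82) kept within 2-fold but had ratios of -1.28 and -1.78 on the other plates. Of 13 extraembryonic mesoderm and allantois genes 9 were counted, with *Hand1* and *Bmp4* higher and *Tbx4* and *Spin2c* lower. Over all genes counted 6.60% were higher and 9.29% lower. The allantois factor *Tbx4* (31.3 and 11.5 CPM) and the mesoderm factor *Hand1* (6.12 and 15.0 CPM) were carried by 10 and 2, and by 8 and 3 members at 20 CPM or more. Both turned their direction among the other plates (1.64 and -0.59).

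The enzymes of DNA methylation, which the study manipulated, lay within 2-fold for 7 of 8 counted. Over all genes counted 15.9% were past 2-fold. The maintenance enzyme *Dnmt1* was at 206 CPM at E7.5 and 247 CPM at E8.5 (log2 ratio 0.26) and its partner *Uhrf1* at 404 and 354 CPM (-0.19). The de novo enzymes *Dnmt3a* and *Dnmt3b* were at 150 and 172 CPM (0.20) and at 195 and 108 CPM (-0.84). Their cofactor *Dnmt3l* had 0 reads on both. The oxidising enzymes *Tet1* (27.4 and 23.3 CPM, -0.22), *Tet2* (52.4 and 56.5 CPM, 0.10) and *Tet3* (93 and 61.3 CPM, -0.60) were read on both plates, and these counts do not tell knockout from host alleles, since reads outside a deleted part may still count. *Tdg*, the glycosylase that removes oxidised methylcytosine, was past 2-fold: its cell median was 20.1 CPM at E7.5 and 52.4 CPM at E8.5, its pooled level 24.3 and 59.3 CPM (1.25). All 5 E8.5 plates (29.6 to 59.3 CPM) were above all 4 E7.5 plates (15.9 to 24.3 CPM). However, 47.2% of the 75-base windows of its longest transcript occur in another gene's transcript, so its counts are uncertain.

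Of 26 cell cycle genes, all were counted and 25 lay within 2-fold, while 15.9% of all genes counted were past it. The list median was 0.35 beside 0.05 over all genes counted, and 0.48 among the other plates. Only the G1 cyclin *Ccnd1* passed 2-fold (226 and 510 CPM, 1.17), and it was lower at E8.5 among the other plates (-0.99). *Cdk1*, the mitotic kinase, reached 350 and 690 CPM (0.98). Its E8.5 plates (531 to 865 CPM) were all above its E7.5 plates (124 to 350 CPM). The replication genes *Mcm2* (255 and 402 CPM, 0.65) and *Mcm3* (391 and 580 CPM, 0.57), the nucleotide reductase *Rrm2* (277 and 441 CPM, 0.67) and the kinetochore motor *Cenpe* (138 and 231.8 CPM, 0.74) stayed within 2-fold, and *Cenpe* had -0.46 on the other plates.

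Glucose uptake and glycolysis genes had a median of -0.03 over 18 counted. *Hk2*, the hexokinase that commits glucose to the pathway, was lower, with a cell median of 95.9 CPM at E7.5 and 13.3 CPM at E8.5 and pooled levels of 134 and 45.1 CPM (-1.54). No E8.5 plate (9.23 to 51.6 CPM) reached an E7.5 plate (87.8 to 134 CPM), and cells outside the rule gave -1.85. The lactate dehydrogenase subunit *Ldhb* was lower too (22.5 and 8.16 CPM, -1.36), but not with E8.5 plate 4 (0.07). *Gapdh* was higher (58.8 and 159 CPM, 1.42), but 22.8% of its windows are shared with another gene. The glucose transporter *Slc2a1* was at 1530 and 1049 CPM (-0.54) and *Pgam1* at 597 and 384 CPM (-0.64).

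Of 18 basement membrane and adhesion genes 17 were counted and 2 were higher, beside 6.60% of all genes counted. The list median was 0.25. *Vim*, the intermediate filament vimentin of mesenchymal and endothelial cells (chromosome 2, 13573927 to 13582826, plus strand), had a cell median of 548 CPM (0 to 1607) at E7.5 and of 2014 CPM (204 to 4909) at E8.5, and pooled levels of 652 and 1892 CPM, a log2 ratio of 1.53. The other plates gave 1.32 and cells outside the rule 1.07, although E8.5 plates 2 and 5, at 60 and 202 CPM, lay under or within the E7.5 plates (194 to 652 CPM). *Cdh2*, the adhesion protein N-cadherin, was higher (22.4 and 74.9 CPM, 1.70) but had -1.0 on the other plates. The laminin subunit *Lamb1* was at 246 and 384 CPM (0.64) and fibronectin *Fn1* at 1780 and 1295 CPM (-0.46).

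Imprinted genes, expressed from a single parental allele under the control of DNA methylation, had 1 of 22 members higher and 1 lower (beside 6.60% and 9.29% of all genes counted) and a median of -0.07. The growth factor *Igf2* was higher, with 11.3 and 37.3 CPM (1.63) and 12 of 74 and 58 of 72 members at 20 CPM or more, but 75.8% of its windows are shared with another gene. *Zim1* was lower (16.7 and 4.02 CPM, -1.81), and the non-coding *Rian* (178 and 339 CPM, 0.92), *Impact* (124 and 63.6 CPM, -0.95), the cell cycle inhibitor *Cdkn1c* (117 and 63.8 CPM, -0.86) and *Phlda2* (132 and 75 CPM, -0.81) stayed within 2-fold. On the other plates *Cdkn1c* was past 2-fold the opposite way (1.51) and *Rian* had -0.40. Of 39 Hox genes 8 were counted, with a median of 0.25. *Hoxa9* was lower (24.4 and 11.5 CPM, -1.03; 3.23 on the other plates), *Hoxb7* was at 7.04 and 12.2 CPM (0.72) and *Hoxb2* at 11.1 and 6.91 CPM (-0.62).

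Of 10 immediate early and heat shock genes, 9 were counted. The growth-factor response gene *Egr1* was lower (72 and 12.9 CPM, -2.39), as was *Fosb* (13.1 and 2.97 CPM, -1.82, against 0.28 on the other plates), while *Jun* was at 148 and 261 CPM (0.81). The chaperone *Hspa1a* was higher (0.63 and 15.4 CPM, 3.33). It was higher on every E8.5 plate (11.4 to 54 CPM) than on every E7.5 plate (0 to 0.72 CPM), and higher in cells outside the rule (4.62), but 61.7% of its windows are shared with another gene.

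Markers of streak, pluripotent, endoderm, cardiac, ectoderm and trophoblast cells were mostly under 10 CPM. The extraembryonic mesoderm and allantois list held more, with 396 CPM summed at E7.5 and 390 CPM at E8.5. So did the blood progenitor and red cell list, with 242 and 121 CPM. Of 19 streak genes only *Snai1* reached 10 CPM (25.2 and 17.9 CPM), and of 12 primed pluripotency genes none did, with 14.1 and 9.98 CPM summed. The endoderm list summed to 6.5 CPM at E7.5 and 66.6 CPM at E8.5 with *Afp* (1.07 and 18.7 CPM) and *Apoa1* (1.05 and 15.9 CPM) called higher. This was the content of few cells: *Afp*, *Apoa1* or *Ttr* was at 20 CPM or more in 2 and 3 members. At E8.5, 5 cells held 98.1% of the *Afp* CPM summed over cells. With E8.5 plate 4 in place of plate 3 the ratios were -1.05 and -1.03. The cardiac list summed to 55.3 and 33.3 CPM with *Myl7* lower (10.6 and 4.81 CPM) and *Isl1* at 29.5 and 19.3 CPM (-0.59, against 0.63 on the other plates). The neural and surface ectoderm list summed to 141 and 110 CPM, most of it the keratins *Krt8* (95.3 and 62.1 CPM) and *Krt18* (42.6 and 47.6 CPM). The trophoblast list summed to 44.1 and 19.6 CPM, with *Rhox5* lower (30.5 and 10.8 CPM, -1.42) but higher at E8.5 on the other plates (3.13). The part of such cells in the pooled ratios was not tested.

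Among genes expressed in most members, the largest ratios at the lower end belonged to *Arl5c*, *Eno1b*, *Lrrc8a*, *Spry2*, *Ptp4a2*, *Gchfr*, *Sod1*, *Zc3hav1*, *Arglu1* and *Efnb2*. *Arl5c*, a small GTPase of the ARF family, had a cell median of 23.2 CPM at E7.5 and 0 at E8.5, with 37 and 3 members at 20 CPM or more and pooled levels of 196 and 3.53 CPM (-5.44). Its E7.5 plates (59.4 to 196 CPM) were all above its E8.5 plates (2.94 to 9.83 CPM). The superoxide dismutase *Sod1* was in every member of both plates, between 230 and 2512 CPM around a median of 1271 CPM at E7.5 and between 28.9 and 515 CPM around 152 CPM at E8.5, a log2 ratio of -2.83. The phosphatase *Ptp4a2* gave a like picture, with cell medians of 1030 and 93.4 CPM and a log2 ratio of -3.14. Both were lower on each E8.5 plate than on each E7.5 plate, and in cells outside the rule (-1.70 and -2.34). The ranges of E8.5 plates were wide, from 161 to 555 CPM for *Sod1* and from 100.5 to 807 CPM for *Ptp4a2*. The splicing regulator *Arglu1* (283 and 40.2 CPM, -2.79), the zinc transporter *Slc39a1* (274 and 48.1 CPM, -2.48), the pore-forming *Gsdme* (91.1 and 15.7 CPM, -2.46) and *Zfp367* (69.1 and 12.3 CPM, -2.40) were also lower with plates that did not overlap.

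Some of these genes have near copies. *Eno1b* (515 and 12.5 CPM, -5.26) shares 79.6% of its windows with another gene and *Lrrc8a* (93.3 and 3.45 CPM, -4.40) shares 66.1%, so that their counts depend on where the aligner placed reads. The antiviral *Zc3hav1* (127 and 17.3 CPM, -2.81) and *Gchfr*, the regulator of GTP cyclohydrolase (82.8 and 9.59 CPM, -2.98), share under 1%, but their plates overlapped between the stages.

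The largest ratios at the upper end belonged to *Clec1b*, *Hgsnat*, *Bst2*, *Mgat4b*, *Sulf2*, *Cyb5r4*, *Cpe*, *Serpinh1*, *Ccdc117* and *Pop4*. *Clec1b*, which encodes CLEC-2, the podoplanin receptor of platelets and their precursors, had a cell median of 0 (0 to 243 CPM) at E7.5 and of 23.6 CPM (0 to 1514) at E8.5, with 17 of 74 and 37 of 72 members at 20 CPM or more. Its pooled levels were 27.6 and 196 CPM (2.78), and its plates overlapped. *Serpinh1*, the collagen chaperone HSP47, was at 334 and 1186 CPM (1.83) with cell medians of 273 and 1069 CPM, but the other plates gave 0.26. *Sulf2*, a heparan sulphate endosulphatase, was at 14 and 61.2 CPM (2.05) and *Bst2*, or tetherin, at 12.5 and 56.5 CPM (2.09). *Mgat4b*, *Cyb5r4*, *Cpe*, *Ccdc117* and *Pop4* had ratios from 1.82 to 2.08. On the other plates *Clec1b* stayed past 2-fold (1.04), while *Bst2* (0.97), *Ccdc117* (0.645) and *Cpe* (0.42, under 10 CPM there) did not, and *Cyb5r4* turned to -0.50. The plates of *Bst2*, *Ccdc117*, *Cpe* and *Cyb5r4* overlapped between the stages, and *Bst2* had -0.19 in cells outside the rule. Among the higher genes whose plates did not overlap were the lysosomal *Hgsnat* (25.7 and 119 CPM, 2.16), the mRNA export factor *Alyref* (29 and 104 CPM, 1.81), the centromere chaperone *Hjurp* (84 and 271 CPM, 1.68) and the splicing factor *Srsf2* (137 and 347 CPM, 1.34). *Gpatch4*, *Ptov1*, *Gtpbp3*, *Gapdh*, *Fam49b* and *Alg8* completed this group, with ratios from 1.35 to 1.74.

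Calls differed by the kind of gene. Of 9182 protein-coding genes counted, 6.15% were higher and 7.75% lower (median 0.06). Of 293 pseudogenes, 15.7% were higher and 49.5% lower (median -0.98), and pseudogenes took 1.84% and 0.84% of all reads of the members. Among 697 coding genes that share 20% or more of their windows with another gene, 14.6% were lower, against 7.05% of the 6608 that share at most 1%. Among genes named above, *Sox17*, *Etv5*, *Cdkn1c*, *Krt8*, *Srsf2* and *Pgam1* share between 20.8% and 40.6% of their windows and their counts are uncertain for the same reason. Why pseudogenes and genes with near copies were so often on the lower side of this pair was not tested.

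Finally, the members were read for signs of the embryos they came from. *Xist*, the RNA of the inactive X, at 20 CPM or more without Y-linked reads at that level marked 40.5% of members at E7.5, and the 4 Y-linked genes together without *Xist* marked 54.1%, leaving 5.41% with neither. On E8.5 plate 3 these shares were 38.9%, 52.8% and 6.94%, with 1 member holding both. *Ddx3y*, a Y-linked helicase, was lower (77.4 and 38.1 CPM, -1.0), and turned to 2.17 against E7.5 lane plate 3. Both sexes were thus present on both plates in like shares. On other plates the share with neither was 75% on E7.5 lane plate 3, 71.4% on E8.5 plate 4 and 73.3% on E8.5 plate 6, but 0% on E7.5 lane plate 1 and 5.63% on E8.5 plate 5. The imprinted *Snrpn* was at 59.8 and 62.8 CPM on the compared plates, at 280 CPM on E7.5 lane plate 3, at 206 CPM on E8.5 plate 4 and at 54.7 CPM on E8.5 plate 5. The pluripotency gene *Dppa4* was at 20 CPM or more in 8.11% and 5.56% of members of the compared plates, and in 39.3%, 53.6% and 55.8% on E7.5 lane plate 3 and E8.5 plates 4 and 6. These plate values were looked up after the data had been seen. What sets those plates apart was not tested, and the labels do not give it.

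**Figure D5:**
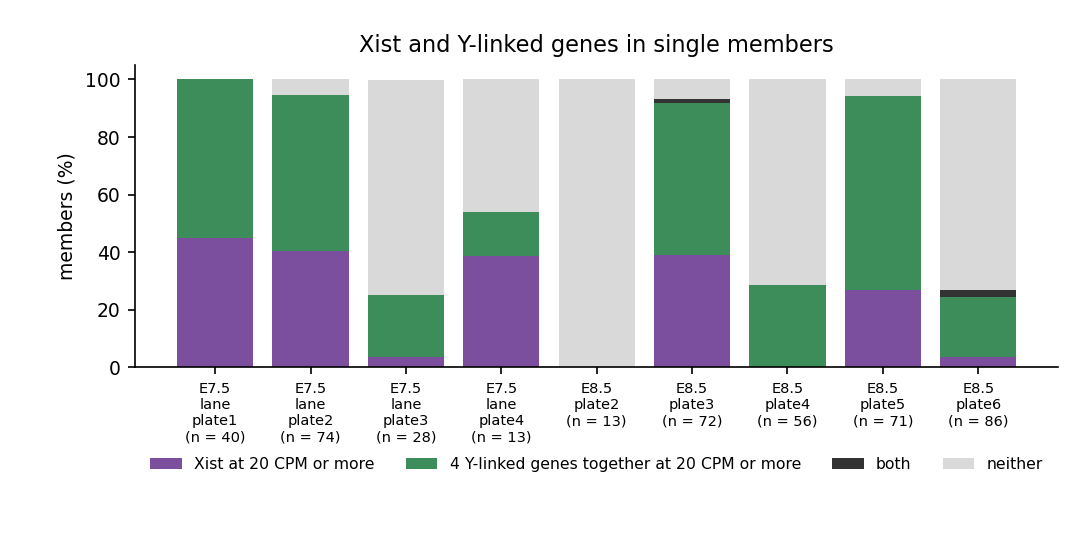
Share of members, in percent, with *Xist* at 20 CPM or more (purple), with 4 Y-linked genes together at 20 CPM or more (green), with both (black) or with neither (grey), for each plate with at least 10 members (n under each bar). The compared plates show 5.41% and 6.94% of members with neither, against 100% on E8.5 plate 2 and 0% on E7.5 lane plate 1.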

How the data were processed

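The authors aligned reads of Smart-seq2 libraries to GRCm38 with HISAT2 2.1.0 and deposited raw counts per gene and cell from featureCounts on an Ensembl annotation; strand and multi-mapping settings are not given in the sources used here. The table held 55487 genes and 1824 cells, with 0 columns left without a sample and 55141 genes matched to a symbol. Members, gene lists and tests were chosen with earlier results of these data known. Raw counts of members were summed per plate and divided by their reads (CPM), so deeper cells weigh more. The log2 ratio used a pseudocount of 1 CPM, which understates low genes, on genes with 10 CPM on either plate. With 1 plate a side no test was made. Intervals are exact Poisson for CPM and Clopper-Pearson for shares, at 95% (scipy 1.17.1), and shares of cells were also taken after thinning to 100000 reads. No doublet caller was run. The methods describe sorting of singlets, but the labels do not show whether this held for the compared plates. Doublets were therefore not excluded.

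Genes named were list members with the largest ratios (up to 6 a list, all methylation enzymes), the 10 largest and 10 smallest ratios among genes with at least 50 CPM and a read in 50% of thinned members on the higher plate, and the same among genes whose plates did not overlap. Predicted genes, pseudogenes, mitochondrial and ribosomal protein genes were left out there. Shared windows are 75-base stretches of a longest GENCODE transcript found in another gene's. The ratio was run on simulated pooled counts with planted 4-fold and 8-fold changes in either direction, and all 50 genes of each kind passed 2-fold. The simulation held Poisson noise only and no spread between cells or plates. It checks the arithmetic and says nothing on the calls made here. Alternatives covered scaling (edgeR 4.0.16 and DESeq2 1.42.0 under R 4.3.3), filters, pseudocounts, member rules and other plates.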

Additional observations from a re-analysis of the deposited data

How the results depend on the processing

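No paired analysis was possible because there is 1 plate a side. Of 71 named genes past 2-fold, 71 stayed past it the same way under edgeR TMM, DESeq2 size factors, without haemoglobin, with a pseudocount of 0.1 CPM and with 4000 reads a cell, 64 with 5 CPM, 64 with cells weighted equally and 62 after thinning. With E8.5 plate 4 in place of plate 3, 43 did, and with E7.5 lane plate 3 in place of lane plate 2, 42. With the other plates pooled, 37 did. These genes were mostly named for large ratios in this pair, so the counts under other scalings were largely fixed by that choice. Some were named because their plates did not overlap, which favours the counts on other plates. Of all genes called in this pair, 27.2% of the higher and 38.1% of the lower kept their direction past 2-fold with the other plates pooled.

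The 635 higher and 894 lower genes became 1627 and 2231 with no filter on low values and 189 and 352 at 50 CPM, since more or fewer genes enter. A pseudocount of 5 CPM gave 416 higher genes. Coding genes with at most 1% shared windows, an alternative chosen after seeing the data, gave 407 and 466 of fewer genes counted. With E7.5 lane plate 3 there were 2224 higher genes, which turned the share of higher among called genes from 41.5% to 62.6%, and with the other plates pooled 1049. The cause was not tested. These 2 settings put the median of all genes at 0.25 and 0.20, against which the ratios below are to be read. Genes with all E8.5 plates higher numbered 1088, in place of 717, with plates of at least 20 members. Asking for 500000 reads left 47 members on E8.5 plate 3.

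Ratios that changed sign, the cause not tested, were *Tbx4* at 1.09 with at least 4 markers. With E8.5 plate 4 they were *Spin2c* 0.02, *Bmp4* -0.71, *Dusp4* -0.11, *Ldhb* 0.07, *Afp* -1.05, *Apoa1* -1.03, *Rhox5* 0.16 and *Hoxa9* 0.76. With E7.5 lane plate 3 they were *Vegfa* 0.60, *Vegfc* 0.43, *Jag1* 2.70, *Gja5* 5.89, *Spi1* 1.61, *Tbx4* 3.37, *Hand1* -1.98, *Fosb* 0.73, *Ddx3y* 2.17, *Myl7* 0.06, *Rhox5* 1.02, *Cyb5r4* -0.17 and *Hoxa9* 3.64. With the other plates pooled they were *Vegfc* 0.70, *Dll1* -0.41, *Gja5* 2.38, *Nfe2* 1.15, *Epor* 1.46, *Pf4* 0.15, *Spi1* 0.15, *Tbx4* 1.64, *Hand1* -0.59, *Bmp4* -0.66, *Dusp4* -1.14, *Ccnd1* -0.99, *Cdh2* -1.0, *Fosb* 0.28, *Rhox5* 3.13, *Cyb5r4* -0.50 and *Hoxa9* 3.23.

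Counting error, as these intervals give it, is small beside the differences between plates of one stage, which limit what a single pair can show.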
